A study of Mus musculus with 4 samples.

Results

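The gp130 cytokines are secreted proteins that signal through a shared receptor chain, gp130, which the gene Il6st encodes. A ligand typically binds gp130 together with another chain, such as the interleukin-6 receptor (Il6ra) or the oncostatin M receptor (Osmr). The bound gp130 then activates JAK kinases and the transcription factor STAT3. In macrophages the family is known for interleukin-6 and oncostatin M, which LPS induces, and for a brake on signalling through Socs3. The members described here are the ligands Il6, Osm, Lif and Clcf1 and the receptor chains Il6st, Il6ra and Osmr. Every probe set that the array's annotation assigns to 1 of these 7 genes alone was taken, which gave 16 of the array's 45037 probe sets. Of these, 11 passed a filter on low signal and were tested, and those 11 cover 6 of the genes. Osmr had 3 probe sets and none passed.

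The cells were mouse macrophages grown from bone marrow for 7 days in medium with 20% L-cell conditioned medium, then kept overnight without it. Both groups were treated overnight with 100 U/ml interferon-gamma, which primes macrophages, and were stimulated for 2 h after a wash. The labels describe this priming in different words for each group: a wait of 16 h is given for the LPS arrays alone, and only their titles name interferon-gamma, while the treatment text of both names it. The LPS group received lipopolysaccharide at 10 ng/ml, which engages TLR4, and the series calls this classical activation. The LPS plus immune complexes group received that LPS dose together with antibody bound to antigen, a ligand of Fc gamma receptors, and the series calls this type II activation. Each group had 2 arrays, numbered 1 and 2 by the labels. The strain, age and number of animals, and the antigen and dose of the complexes, are not given in the sources used here. No unstimulated sample was analysed here, so the readings show a difference between stimulations and not an induction. The labels do not say that the arrays came from separate cultures, so p-values cover only the scatter of these samples, and part of that may be technical.

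Signals are linear MAS 5.0 intensities in arbitrary units, and fold changes are on the log2(signal + 32) scale. The 9 macrophage markers read between 730 and 46505 on the 4 arrays, among them Csf1r, Cd14 and Adgre1. No other cell type's marker exceeded 336, apart from S100a8, listed here as a neutrophil marker, at 505 to 1138. The first LPS plus immune complexes array stands apart from the rest. Its median signal was 155.8 against 68.4 to 88.6 on the other 3 arrays, its 5th percentile was 28.1 against 3.3 to 7.9, and 53.3% of all 45037 probe sets had their highest reading on it. Of the 16 member probe sets 9 did, and the part of these raised low signals in the readings of dim members was not tested.

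The stretches upstream of the start sites of Il6, Lif and Il6st are shown, because Il6 readings separated the arrays by their number, the readings of the brighter pair of Il6st probe sets separated them by stimulation, and Lif is the gene next to Osm. Each has 250 bases that end just before the start, from RefSeq on GRCm38.p6, plus strand, 5′ to 3′, and capitals mark the motifs found. Il6 lies at chr5:30012864-30013113, Lif at chr11:4257318-4257567 and Il6st at chr13:112463820-112464069.
Il6: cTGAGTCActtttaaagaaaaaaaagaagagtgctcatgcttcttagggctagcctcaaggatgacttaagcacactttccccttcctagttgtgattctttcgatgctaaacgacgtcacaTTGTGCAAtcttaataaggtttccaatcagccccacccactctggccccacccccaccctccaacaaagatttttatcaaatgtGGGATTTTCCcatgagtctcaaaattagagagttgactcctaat
Lif: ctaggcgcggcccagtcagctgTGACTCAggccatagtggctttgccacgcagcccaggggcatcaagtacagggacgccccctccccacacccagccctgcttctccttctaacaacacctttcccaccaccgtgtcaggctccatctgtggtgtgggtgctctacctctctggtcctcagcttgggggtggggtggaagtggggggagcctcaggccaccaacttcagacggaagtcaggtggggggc
Il6st: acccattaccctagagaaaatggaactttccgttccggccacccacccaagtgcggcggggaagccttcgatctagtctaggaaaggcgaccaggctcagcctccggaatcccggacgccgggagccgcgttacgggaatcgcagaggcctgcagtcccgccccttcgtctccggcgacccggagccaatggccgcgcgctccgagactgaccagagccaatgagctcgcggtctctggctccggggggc
The motifs searched on both strands were TTCNNNGAA (STAT), TGANTCA (AP-1), TGACGTCA (CRE), GGG, any 2 bases and then TTTCC (NF-kB) and TTGCNNAA (C/EBP). The Il6 stretch held an AP-1 match at 249 to 243 bases before the start, a C/EBP match on the minus strand at 128 to 121 and an NF-kB match at 44 to 35. The Lif stretch held an AP-1 match at 228 to 222 bases before the start, and the Il6st stretch held none of the motifs. No match overlapped another. Of the 32851 stretches of this length in the promoter table, 7.02% hold the STAT motif, 6.75% AP-1, 1.55% CRE, 1.41% NF-kB and 9.56% C/EBP. The stretches of Il6ra and Osmr held none of the motifs either, and Osm and Clcf1 had no entry among the 5 members matched. Osm and Lif are neighbours on chromosome 11, with 0 protein-coding genes between them in RefSeq's gene table.

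No member probe set passed the threshold in the comparison of LPS plus immune complexes with LPS (limma, Benjamini-Hochberg adjusted p under 0.05 over 27022 probe sets). Over the whole array 0.0444% of tested probe sets passed on the higher side and 0.0074% on the lower side. At an unadjusted limma p under 0.05, 3 of the 11 tested member probe sets were higher and 0 lower, against 1.86% and 0.947% of all tested. These 3 were the Osm probe set and a pair of Il6st probe sets. Both arrays with immune complexes read above both LPS arrays in 4 of the 11, against 13.6% of all tested probe sets, and below them in 0, against 12%. A difference of at least 2-fold in all 4 pairs of arrays was met by 1 member probe set, that of Osm, on the higher side and by 0 on the lower side, against 1.27% and 0.326%. The median log2 fold change was 0.32 over the 11 member probe sets and 0.07 over all tested. It was 0.13 for the 6 ligand probe sets and 0.88 for the 5 receptor probe sets, of which 3 belong to Il6st. With 11 probe sets from 6 genes these counts describe the members and are no test of the family. Without the first LPS plus immune complexes array, 5 of the 11 member probe sets read higher and 4 lower than both LPS arrays, against 24.7% and 34.4% of all tested.

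**Figure D1:**
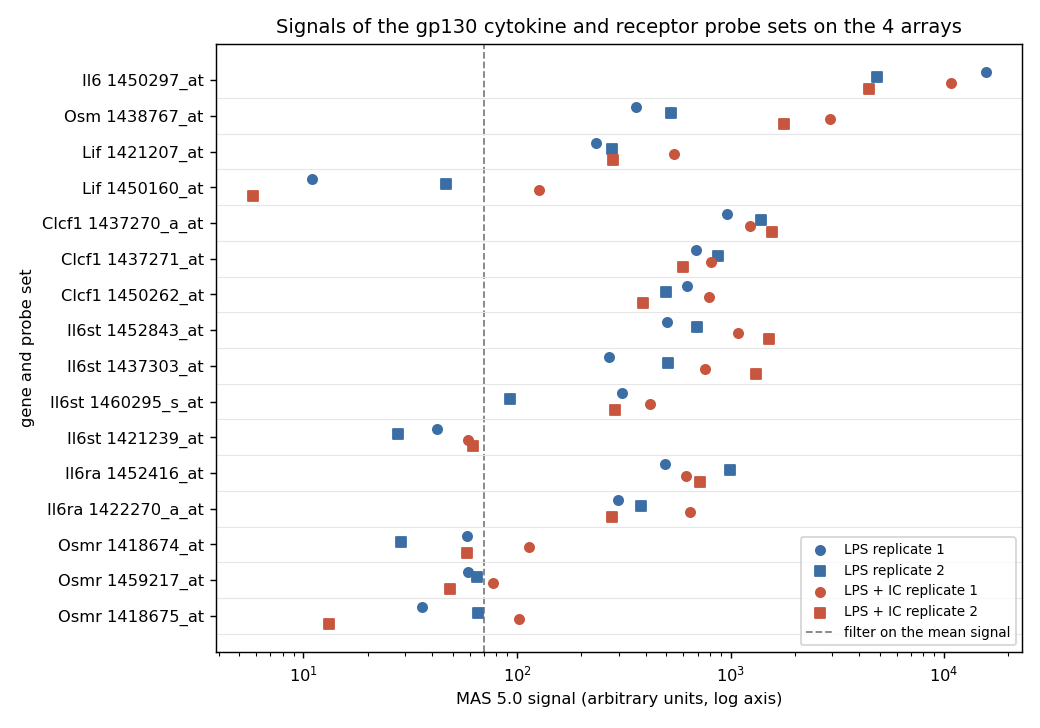
MAS 5.0 signal (arbitrary units, log axis) of the 16 member probe sets, 1 point per array; circles are replicate 1, squares replicate 2, blue is LPS, red is LPS plus immune complexes (IC), and the dashed line is the filter at a mean signal of 69.7. The red points lie right of both blue points for Osm and for the 1452843_at and 1437303_at probe sets of Il6st. They also do so for Il6st 1421239_at, below the filter, and barely for Lif 1421207_at and Osmr 1418674_at, by at least 1.02 and 1.01 times. The Il6 points pair by replicate number.

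Among the ligands, Osm differed the most. Osm encodes oncostatin M, a cytokine of activated macrophages, neutrophils and T cells that acts on stromal and endothelial cells. Its probe set, 1438767_at, read 361 and 523 on the LPS arrays and 2930 and 1784 with immune complexes, on arrays 1 and 2. The groups did not overlap, and the lower reading with immune complexes was 3.41 times the higher LPS reading. The log2 fold change was 2.31 ± 0.41 (SE, n = 2 arrays per group), or 4.97-fold, with a 95% interval of 1.42 to 3.21. The limma adjusted p was 0.0945, which did not pass, and the unadjusted p was 0.000113. By p it ranked 32 and by log2 fold change 37 among the 27022 tested probe sets. The spread between arrays was smaller than the difference, with a log2 difference of -0.5 between LPS arrays 1 and 2 and of 0.71 between the arrays with immune complexes.

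The size of the Osm difference held when any array was left out, while the call moved across the alternatives. Its log2 fold change was 2.06 without the first LPS array and 2.56 without the second. It was 1.96 and 2.67 without the first and the second array with immune complexes. Over all the alternatives run, the limma adjusted p of Osm lay between 3.59e-15 and 1. Neutrophils also make Osm, and the summed signal of 6 neutrophil markers was 829.5 and 848.3 on the LPS arrays against 1325.7 and 1452 with immune complexes. S100a8 made up most of every sum: its signals were 540.8 and 504.7 in the LPS group, 871.3 and 1137.6 in the other. The sums thus mainly follow that gene, and whole-culture RNA does not show which cells made it. Of the 6, S100a8 and Elane read higher on both arrays with immune complexes, Mpo read lower on both, and Camp, S100a9 and Cxcr2 overlapped. None of the 6 was at 0, Elane did not exceed 128, and the part of these markers in the Osm readings was not tested. In whole-culture RNA, more Osm-making cells and more Osm RNA per cell cannot be told apart.

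The readings of Il6 did not separate the stimulations. Interleukin-6 is the founding member of the family, an acute-phase and B cell cytokine. Its probe set, 1450297_at, read 15669 and 4858 after LPS and 10778 and 4458 after LPS plus immune complexes. Both first arrays were high and both second arrays low, so the groups overlapped. Array 1 exceeded array 2 by 3.23 times with LPS and 2.42 times with immune complexes. Within number 1 and within number 2, the log2 difference between stimulations was -0.54 and -0.12, and the labels do not say what a shared number stands for. The log2 fold change was -0.33 ± 0.51 (limma adjusted p = 1), and its 95% interval ran from -1.44 to 0.78. It turned to 0.51 without the first LPS array and to 0.30 without the second array with immune complexes, and was -1.17 without the second LPS array. The 4 pairs of arrays ranged from -1.81 to 1.14, and the interval takes in a 2-fold decrease but not a 2-fold increase.

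Lif encodes leukemia inhibitory factor, which binds the LIF receptor with gp130 and is known for holding mouse embryonic stem cells undifferentiated. The brighter of its 2 probe sets, 1421207_at, read 235 and 278 after LPS and 543 and 282 after LPS plus immune complexes. The last reading sits next to the LPS readings, and only the array with raised low signals stands clear of them. The log2 fold change was 0.56 ± 0.46 (limma adjusted p = 1, 95% interval -0.44 to 1.56), and without the first array with immune complexes it was 0.13. The dimmer, 1450160_at, made from the same transcript record, read 11 and 46.3 against 126.1 and 5.8 and was below the filter. Its highest and its lowest reading both came from arrays with immune complexes. The difference in Lif thus came from 1 array, while both arrays with immune complexes stood clear for the neighbouring gene Osm.

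Clcf1 encodes cardiotrophin-like cytokine factor 1, which is secreted with a partner chain and acts through the CNTF receptor, the LIF receptor and gp130. All 3 of its probe sets were tested, and 1437270_a_at and 1437271_at were made from the same transcript record. The brightest read 965 and 1386 after LPS and 1232 and 1571 after LPS plus immune complexes. The next read 691 and 877 against 806 and 597, and 1450262_at read 627 and 499 against 796 and 389. In each of the 3 the groups overlapped. Their log2 fold changes were 0.26 ± 0.38, -0.16 ± 0.40 and 0 ± 0.45, each with limma adjusted p = 1. The 95% interval of the brightest was -0.57 to 1.09. Without the second array with immune complexes the latter 2 turned to 0.05 and 0.49.

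**Figure D2:**
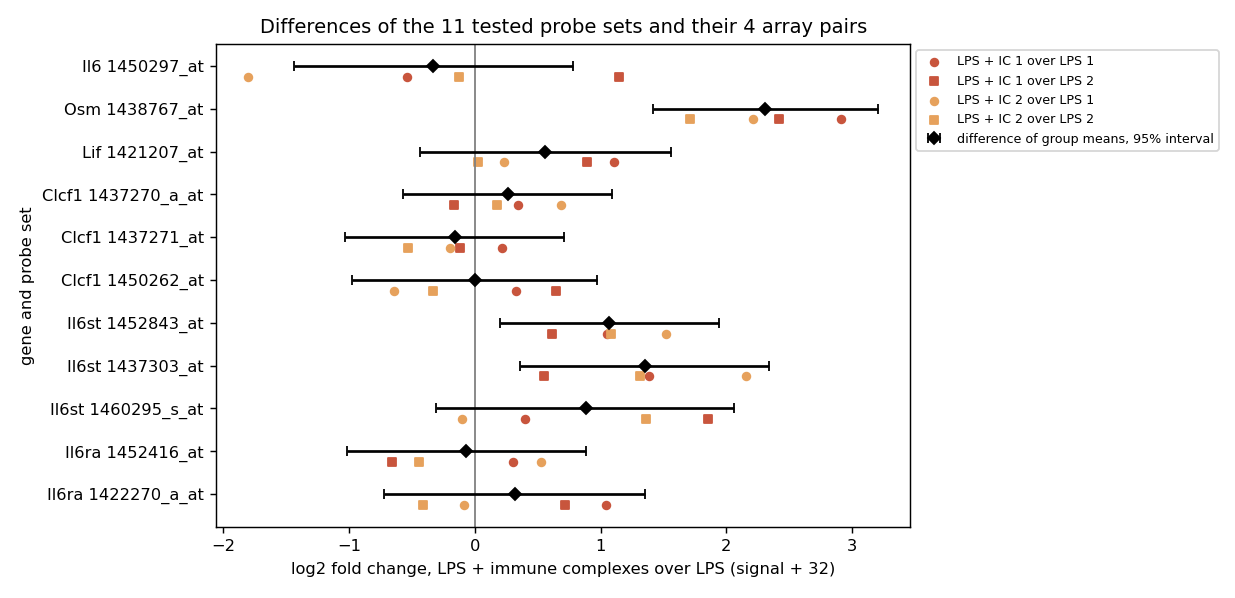
Log2 fold change of LPS plus immune complexes (IC) over LPS for the 11 tested probe sets; black diamonds with bars are limma's estimate and its 95% interval, and the smaller points under each are the 4 pairs of an array with immune complexes over an LPS array. The 4 pairs lie between 1.71 and 2.92 for Osm and on both sides of 0 for Il6, Clcf1, Il6ra and the 1460295_s_at probe set of Il6st.

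Among the receptor chains, Il6st gave the largest differences. It encodes gp130 itself, the chain that Il6, Osm, Lif and Clcf1 all signal through. Its brightest probe set, 1452843_at, read 505 and 693 after LPS and 1080 and 1506 after LPS plus immune complexes. The next, 1437303_at, which was made from another transcript record, read 271 and 508 against 759 and 1313. In both the arrays with immune complexes lay above both LPS arrays, by at least 1.56 and 1.49 times, and the 4 arrays kept the same order. Their log2 fold changes were 1.07 ± 0.40 and 1.35 ± 0.45, or 2.1-fold and 2.55-fold, with 95% intervals of 0.20 to 1.94 and 0.36 to 2.34. The unadjusted limma p was 0.0201 and 0.0118, and the limma adjusted p was 1 for each, so neither passed. Leaving out any array kept both above 0, from 0.83 to 1.30 and from 0.93 to 1.77.

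The other Il6st probe sets lay in the same direction with less certainty. The third, 1460295_s_at, read 310 and 92.3 after LPS and 418 and 287 after LPS plus immune complexes, so the first LPS array lay between the arrays with immune complexes. Its log2 fold change was 0.88 ± 0.54 (limma adjusted p = 1), and it was 0.15 without the second LPS array and 1.61 without the first. The fourth, 1421239_at, shares its transcript record with the third and was below the filter, at 42.4 and 27.7 against 58.9 and 62. The 4 probe sets target 1 gene and are not replicates of each other. Within number 1 and within number 2, the log2 difference between stimulations was 1.05 and 1.08 for 1452843_at and 1.39 and 1.32 for 1437303_at. It was 0.40 and 1.36 for 1460295_s_at. For each probe set the value within number 1 includes the array with raised low signals, whose part in it was not tested. The labels do not say what a shared number stands for.

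Il6ra encodes the chain that binds interleukin-6 before gp130 and that can be shed as a soluble receptor. Its brighter probe set, 1452416_at, read 493 and 993 after LPS and 616 and 722 after LPS plus immune complexes. The arrays with immune complexes lay between the LPS arrays, and the log2 fold change was -0.07 ± 0.44. The other, 1422270_a_at, read 298 and 382 against 649 and 279, with 0.32 ± 0.48. The limma adjusted p was 1 for both, and the 95% intervals were -1.02 to 0.88 and -0.72 to 1.35. Without the first array with immune complexes they turned to 0.04 and -0.25, and without the second LPS array the brighter one turned to 0.41.

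Osmr encodes the chain that pairs with gp130 to bind oncostatin M and is best known from stromal, endothelial and liver cells. Its 3 probe sets had mean signals of 64.8, 62.5 and 54.1, under the filter at 69.7. Their 12 readings lay between 13.2 and 114.1, and in each probe set the highest came from the first array with immune complexes. The brightest, 1418674_at, read 58.1 and 28.6 after LPS and 114.1 and 58.6 after LPS plus immune complexes. The 6 markers of fibroblasts, a cell type that carries this chain, summed to 347 and 331 with LPS and to 938 and 289 with immune complexes. None of them was at 0. The 938 came from the array with raised low signals. Marker sums of dendritic cells, mast cells with basophils, B cells, and T with NK cells were also highest there, at 707.3, 580.4, 544.8 and 267.6. Those of macrophages and neutrophils were highest on other arrays. The part of the fibroblast markers in the Osmr readings was not tested. The table used here has no detection calls, so an absent Osmr transcript cannot be told apart from a low one.

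**Figure D3:**
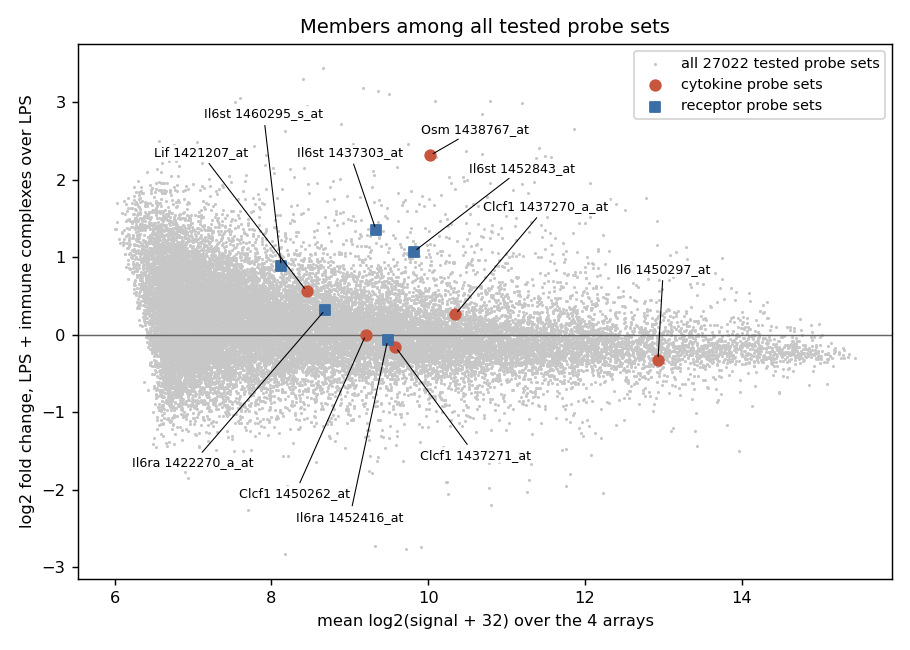
Log2 fold change of LPS plus immune complexes over LPS against the mean log2(signal + 32) of the 4 arrays, for all 27022 tested probe sets (grey), the 6 cytokine probe sets (red circles) and the 5 receptor probe sets (blue squares). Osm lies at 2.31 and a pair of Il6st probe sets at 1.35 and 1.07, and the other 8 lie between -0.33 and 0.88.

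The rest of the pathway was taken from 7 lists with 62 genes, each gene by the brightest of its tested probe sets. Of these, 51 were tested, 3 were below the filter and 8 had no probe set that names them alone. None of the 51 passed in either direction by limma, where 0.0621% of all 12891 tested genes passed on the higher side and 0% on the lower. At an unadjusted limma p under 0.05, 1 was higher and 3 lower, against 1.99% and 1.14% of all tested genes. Groups did not overlap in 6 of the 51 on the higher side and 12 on the lower side, against 13.2% and 13.1%. The median log2 fold change was -0.11 over the 51 and 0.05 over all tested genes. Bright genes lay lower across the array: 45.9% of all 12891 tested genes were below 0, but 67.7% of the 3911 with a mean signal of at least 1000, a bound chosen after the values were seen, with a median of -0.13.

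Of the other ligands 3 of 8 were tested, with a median of -0.64. Ebi3, a subunit of interleukin-27, which also signals through gp130, read 4759 and 5853 after LPS and 1797 and 3173 after LPS plus immune complexes. The groups did not overlap, and the log2 fold change was -1.13 ± 0.36 (limma adjusted p = 0.88). Ctf1, which encodes cardiotrophin-1, had -0.64 ± 0.64, and Il11 had 0.54 ± 1.16 with readings of 118 and 4.7 against 207.5 and 16.2. Of the other receptor chains 3 of 6 were tested, with a median of 0. Lifr, the partner of gp130 for LIF, had -0.21 ± 0.51, Il12rb2 0.26 ± 0.60 and Cntfr 0 ± 0.63. The limma adjusted p was 1 for these 5 genes, and with quantile normalization Il12rb2 was at 0 and Cntfr at -0.24.

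The proteases Adam10 and Adam17, which shed receptor ectodomains such as that of Il6ra, were listed with 3 genes that mature or control such proteases, and all 5 were tested, with a median of -0.07. Furin, a proprotein convertase, had 0.40 ± 0.35, and Rhbdf1 and Rhbdf2, which encode the iRhoms, inactive rhomboids that control Adam17, had 0.26 ± 0.58 and -0.15 ± 0.32. The signal relay had 10 of 12 genes tested, 8 of them below 0, with a median of -0.2. Of the 10, 7 had a mean signal of at least 1000, and their median was -0.19 against -0.13 for all genes that bright. The kinase Jak2 read 9935 and 10203 after LPS and 5070 and 8662 after LPS plus immune complexes, and its log2 fold change was -0.60 ± 0.31. Stat5a, a transcription factor, had -0.38 ± 0.37, and the adaptor Gab1 had -0.35 ± 0.41. Rhbdf1 turned to -0.68 and Stat5a to 0.11 without the first array with immune complexes. The limma adjusted p was 1 for each of these 6 genes.

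The 9 inhibitors of the pathway had a median of -0.05. Cish, a SOCS family member, had -0.74 ± 0.41, Socs2, another, 0.54 ± 0.62, and Pias3, an inhibitor of STAT3, 0.96 ± 0.56. Pias3 read 101 and 117 after LPS and 376 and 152 after LPS plus immune complexes. Socs3, the main brake on gp130 and a member of the target list too, had -0.14 ± 0.23. The 11 STAT3 target genes had a median of -0.2, and 10 of them lay below 0. Those 10 were the targets with a mean signal of at least 1000, where 67.7% of all genes lay below 0. Their median was -0.25 against -0.13 for all genes that bright. Groups did not overlap in 4 of the 11 on the lower side and 0 on the higher side, against 13.1% and 13.2% of all tested genes. The list as a whole was not tested. Saa3, an acute-phase protein, read 30027 and 20410 after LPS and 19906 and 8514 after LPS plus immune complexes, and its log2 fold change was -0.93 ± 0.36. Bcl3, a nuclear partner of NF-kB, had -0.85 ± 0.46, and Myc, at 1.01 ± 0.51, was the target above 0. In both the groups overlapped. Bcl3 read 4177 and 6960 after LPS and 1729 and 5121 after LPS plus immune complexes, and Myc 189 and 511 against 506 and 878. Bcl3 was at -0.07 without the first array with immune complexes, and Myc at 0.37 without the first LPS array. Timp1, an inhibitor of matrix proteases, had -0.83 ± 0.36, and Saa3 and Timp1 were the targets with an unadjusted limma p under 0.05, at 0.025 and 0.0404. The limma adjusted p was 1 for every gene named from the inhibitors and the targets.

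Of 13 regulators that act on Il6 transcription or on its mRNA, 12 were tested, with a median of 0.15 and 8 above 0. Of the 12, 11 had a mean signal of at least 1000, and 27.3% of those lay below 0, against 67.7% of all genes that bright. That bound was chosen after the values were seen, and the list as a whole was not tested. Atf3, a repressor of Il6 transcription, read 11798 and 12486 after LPS and 18197 and 18511 after LPS plus immune complexes. Its groups did not overlap, and its log2 fold change was 0.60 ± 0.24 with an unadjusted limma p of 0.0301 and limma adjusted p = 1. Arid5a, a protein that stabilises Il6 mRNA, had 0.47 ± 0.33, and Rc3h1 (roquin-1), which promotes its decay, had -0.49 ± 0.39. The limma adjusted p was 1 for both.

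**Figure D4:**
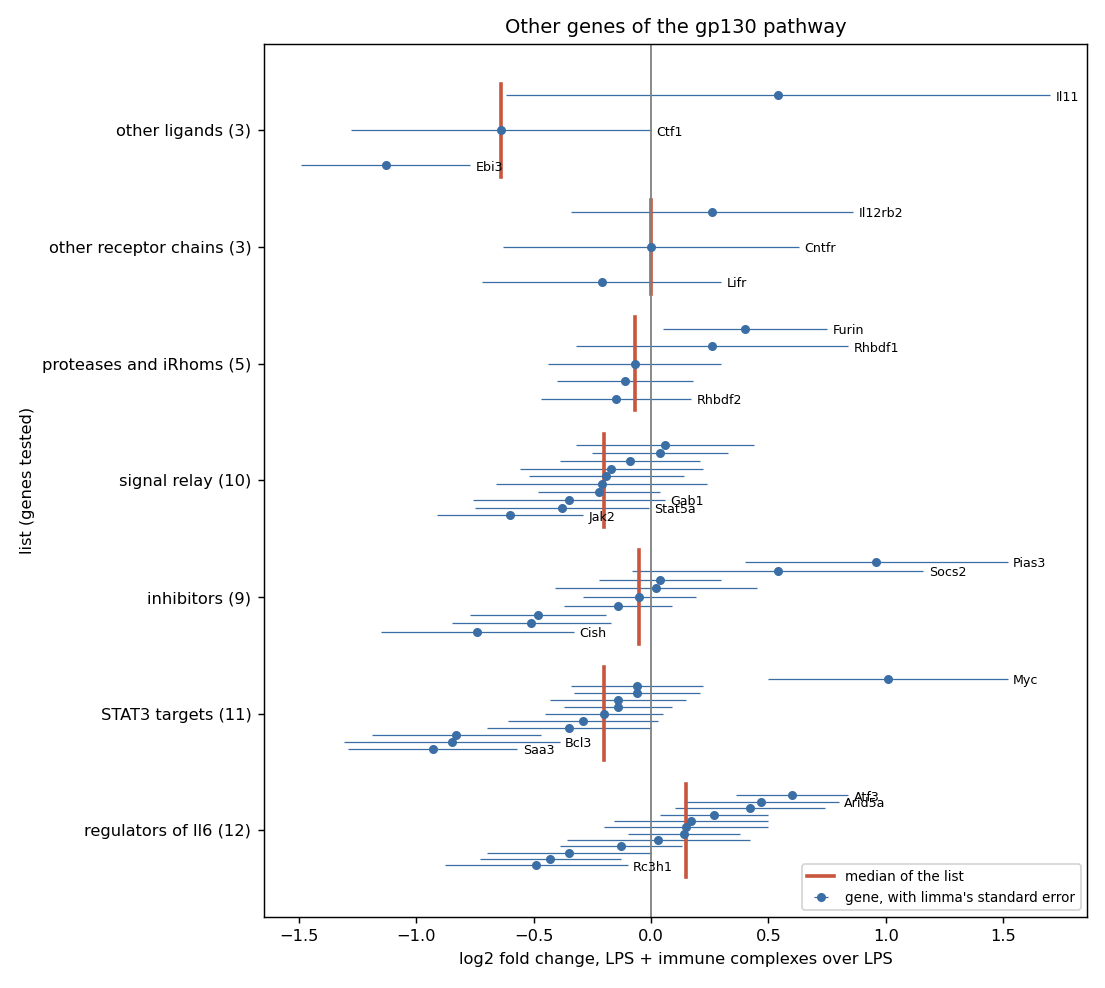
Log2 fold change of LPS plus immune complexes over LPS for the tested genes of the 7 pathway lists; points are genes with limma's standard error, red bars the median of each list, and numbers in parentheses the genes tested. The medians lie between -0.64 (other ligands) and 0.15 (regulators of Il6), and Ebi3 at -1.13 and Myc at 1.01 are the outermost genes.

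The genes whose readings over the 4 arrays were most like those of Osm, Il6 and Lif were found by the Euclidean distance between log2(signal + 32) profiles centred on their means, among 12890 genes. For Osm these were Bhlhe40 at a distance of 0.38, Depdc7 at 0.41 and Cxcr4 at 0.41, where the median gene lay at 2.44. Bhlhe40, a transcriptional repressor, read 532 and 625 after LPS and 3384 and 1776 after LPS plus immune complexes. Cxcr4, the receptor of the chemokine CXCL12, read 506 and 942 against 4899 and 2204. For Il6 they were Pilrb1 at 0.02, Pilra at 0.1 and Asns at 0.13, with a median of 1.67. Pilrb1, an activating immune receptor, read 2918 and 902 after LPS and 1992 and 819 after LPS plus immune complexes, which is the split by array number seen for Il6. For Lif they were 4933432I09Rik and Lrch4 at 0.04 and Ndnf at 0.05, with a median of 1.07, and each was highest on the first array with immune complexes. These genes were picked by their readings on these same 4 arrays, so their likeness is a description.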

How the data were processed

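Total RNA of the 4 macrophage samples was hybridised to a mouse Affymetrix array, and 1 signal per probe set and array was used. The deposited values are linear intensities, for which the submitters' processing notes name MAS 5.0. That method scales each array as a whole, and the mean trimmed by 2% at each end was 500 for every array. It does not equalise low signals. Detection calls were not used here.

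Groups came from the sample titles. A filter dropped the 64 control probe sets and those whose mean signal was below the 40th percentile (69.7), so 27022 were tested. Signals were taken as log2(signal + 32), which understates changes of dim probe sets, and compared in limma 3.58.1 (R 4.3.3) with lmFit, eBayes, a variance trend and no block, two-sided. The method was tested on simulated data. No 2 arrays shared more than 74 identical values. GEO's annotation names 1 gene for 34945 probe sets, several for 932 and none for 9160. Genes named in the pathway lists are those with the 3 largest absolute changes per list and any past the threshold, beside all 7 members. Timp1, Socs3 and the cell markers were named after their values were seen. The members and lists were chosen with earlier results of these data known. Alternatives were quantile normalization, median centring, a pseudocount of 1 or 100, no filter or the 60th percentile, no variance trend, a replicate block, and each array left out. The arrays' number limits the precision.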

Additional observations from a re-analysis of the deposited data

How the results depend on the processing

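The alternatives changed 1 choice at a time, except that quantile normalization was also combined with the replicate block. The count of member probe sets past the threshold on the higher side was 1 (Osm) without a filter and at an adjusted p under 0.1. It was 3 (Osm and the brighter pair of Il6st) with the replicate number as a block, without and with quantile normalization, and 0 to 1 when an array was left out. On the lower side it was 0 throughout. With the replicate block the limma adjusted p was 1.99e-13 for Osm and 0.0148 and 0.00197 for Il6st 1452843_at and 1437303_at. The labels do not say what a shared number stands for. Deviations of same-numbered arrays from their group means correlated at 0.38 over tested probe sets. Array 1 had the higher median signal in each group, 88.6 against 79.8 with LPS and 155.8 against 68.4 with immune complexes. The part of such array-wide differences in the correlation was not tested. In the blocked fit, without normalization and with it, the prior degrees of freedom were infinite, which sets the same spread for probe sets of like signal. They were also infinite with median centring and in the fits without either LPS array.

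Over the whole array the counts higher and lower were 0 and 0 with quantile normalization, 33 and 14 with median centring, 68 and 21 without a filter, 4 and 0 with the 60th percentile as filter, and 0 and 0 without the variance trend. They were 20 and 3 with a pseudocount of 1, 6 and 0 with one of 100, 32 and 5 at an adjusted p under 0.1, 404 and 267 with the replicate block, 537 and 365 with the block and quantile normalization, and from 0 to 77 and from 0 to 32 without an array. Pathway genes past the threshold were 1 higher (Atf3, limma adjusted p = 0.00848) and 5 lower with the block, among them Saa3 (1.88e-07), Ebi3 (1.31e-05), Bcl3 (0.00282) and Jak2 (0.0309), 3 and 6 with the block and quantile normalization, and 0 under every other alternative. Without an array, 1 to 3 member probe sets were at least 2-fold higher in every pair. The count of members whose groups did not overlap, an alternative chosen after seeing the data, was 4 higher and 0 lower with quantile normalization and 5 to 7 higher and 0 to 4 lower without an array. Median centring moved the median of all probe sets by -0.2, leaving out the first and second array with immune complexes by -0.12 and 0.13.

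Osm, Lif, the brightest Clcf1 probe set and the 3 tested of Il6st kept their sign under all 13 alternatives. Clcf1 1450262_at, at 0, was 0.01 with a pseudocount of 100. Cntfr, at 0, was -0.24 with quantile normalization, -0.24 with the block added, -0.2 with median centring and -0.03 with a pseudocount of 1, and Il12rb2 was 0 with quantile normalization with and without the block. Without each array in turn the values that turned ranged from -1.17 to 0.51 for Il6, -0.37 to 0.05 and -0.49 to 0.49 for Clcf1 1437271_at and 1450262_at, and -0.55 to 0.41 and -0.25 to 0.88 for Il6ra 1452416_at and 1422270_a_at. They ranged from -0.62 to 1.69 for Il11, -0.1 to 0.61 for Il12rb2, -0.51 to 0.08 for Lifr, -0.56 to 0.56 for Cntfr, -0.68 to 1.19 for Rhbdf1, -0.37 to 0.07 for Rhbdf2, -0.87 to 0.11 for Stat5a and -0.08 to 1.15 for Socs2. The cause was not tested. With an array left out, the group with 1 array takes its spread from the remaining pair.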
